A study of Peromyscus maniculatus with 16 samples.

Results

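The nuclear receptors that govern lipid, bile acid, drug and hormone metabolism in the liver were examined in deer mice (Peromyscus maniculatus) given chow or a high-fat diet. The receptors were chosen by name: Ppara, Pparg, Nr1h3, Nr1h4, Rxra, Nr1i2, Nr1i3, Hnf4a, Nr5a2 and Thrb. Of these 10 symbols, 9 were in the table of 16910 genes, and Nr5a2 was not analysed here. All 9 passed the filter on low counts, at least 0.5 CPM (counts scaled to a common library size) in at least 1 animal, which left 12639 genes for testing.

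Liver RNA-seq came from 16 animals. The control group (C) had 6 males on chow, the group named NS had 5 males on a high-fat diet (HFD) with 58 kcal% fat whose livers were free of steatosis, and the group named S had 5 animals on that diet whose livers were steatotic, 2 males and 3 females. The diets began at 3 to 4 months of age and lasted 28 weeks, so the animals were 10 months old at the end. Each group held 1 animal of the SM2 stock (P. m. sonoriensis, numbered C1, NS1 and S1), and the other 13 were of the BW stock (P. m. bairdii). The females were S2, S4 and S5, so sex differed between S and the other groups. Steatosis was recorded after the same diet in NS and S and was not assigned, and the 3 main comparisons share animals (C enters both S vs C and NS vs C). Total counts ran from 4640733 (S3) to 11349971 (C5), with a median of 8185803. At that depth the receptor with the fewest counts, Thrb, had 78 to 279 counts per animal, and Nr1i3 had 598 to 3554.

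Nuclear receptors are transcription factors that are switched by small lipophilic ligands such as fatty acids, oxysterols, bile acids, thyroid hormone and drugs. Most of the metabolic receptors bind DNA as a pair with RXR-alpha, the product of Rxra, while HNF4-alpha binds as a pair with itself and maintains the hepatocyte program. In the liver they are known for coupling nutrient and bile acid levels to fatty acid oxidation, lipogenesis, bile acid synthesis and detoxification. The ligand, more than the amount of receptor mRNA, usually sets their activity, so the mRNA levels below do not measure that activity.

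Of the 9 receptors, Nr1i3 alone passed a test in any comparison of the diet groups. Nr1i3, which encodes the constitutive androstane receptor (CAR), a sensor of drugs and other foreign compounds, was lower in S than in C. In S vs C, 1 of 9 receptors passed at an adjusted p under 0.1 with any fold change, against 10.8% of all genes tested, and 0 of 9 passed when a fold of at least 2 was also asked for, against 4.06% (edgeR quasi-likelihood test with Benjamini-Hochberg adjustment over all genes). The values of 1 receptor, again Nr1i3, did not overlap between S and C, against 4.19% of all genes. With 9 receptors, 1 call is near the share of all genes at any fold.

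Comparing NS with C, 0 of 9 receptors passed at any fold (0.0791% of all genes did) or at a fold of at least 2 (0.0712%), 0 had an unadjusted p under 0.05, and 0 had groups that did not overlap (0.989% of all genes). In S vs NS the counts were likewise 0 of 9 at any fold and at a fold of at least 2 (0.00791% of all genes for either rule), 0 at an unadjusted p under 0.05 and 0 without overlap (1.18%). The comparison of both HFD groups with chow, HFD vs C, gave 0 of 9 at any fold (2.67% of all genes), 0 at a fold of at least 2 (0.894%), 1 at an unadjusted p under 0.05, which was Nr1i3, and 0 without overlap (0.348%). Of the 12639 genes, 3010 had an unadjusted p under 0.05 between S and C, 1048 between NS and C, 1381 between S and NS and 2262 between HFD and C, and the counts of list genes below are to be read against these. DESeq2 called the same numbers of receptors at any fold, 1 receptor in S vs C and 0 in each of the other comparisons. Of all 12639 genes DESeq2 called 833 higher and 890 lower in S vs C. It called 90 in NS vs C, 97 in S vs NS and 954 in HFD vs C, and its list counts below are to be read against these.

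**Figure D1:**
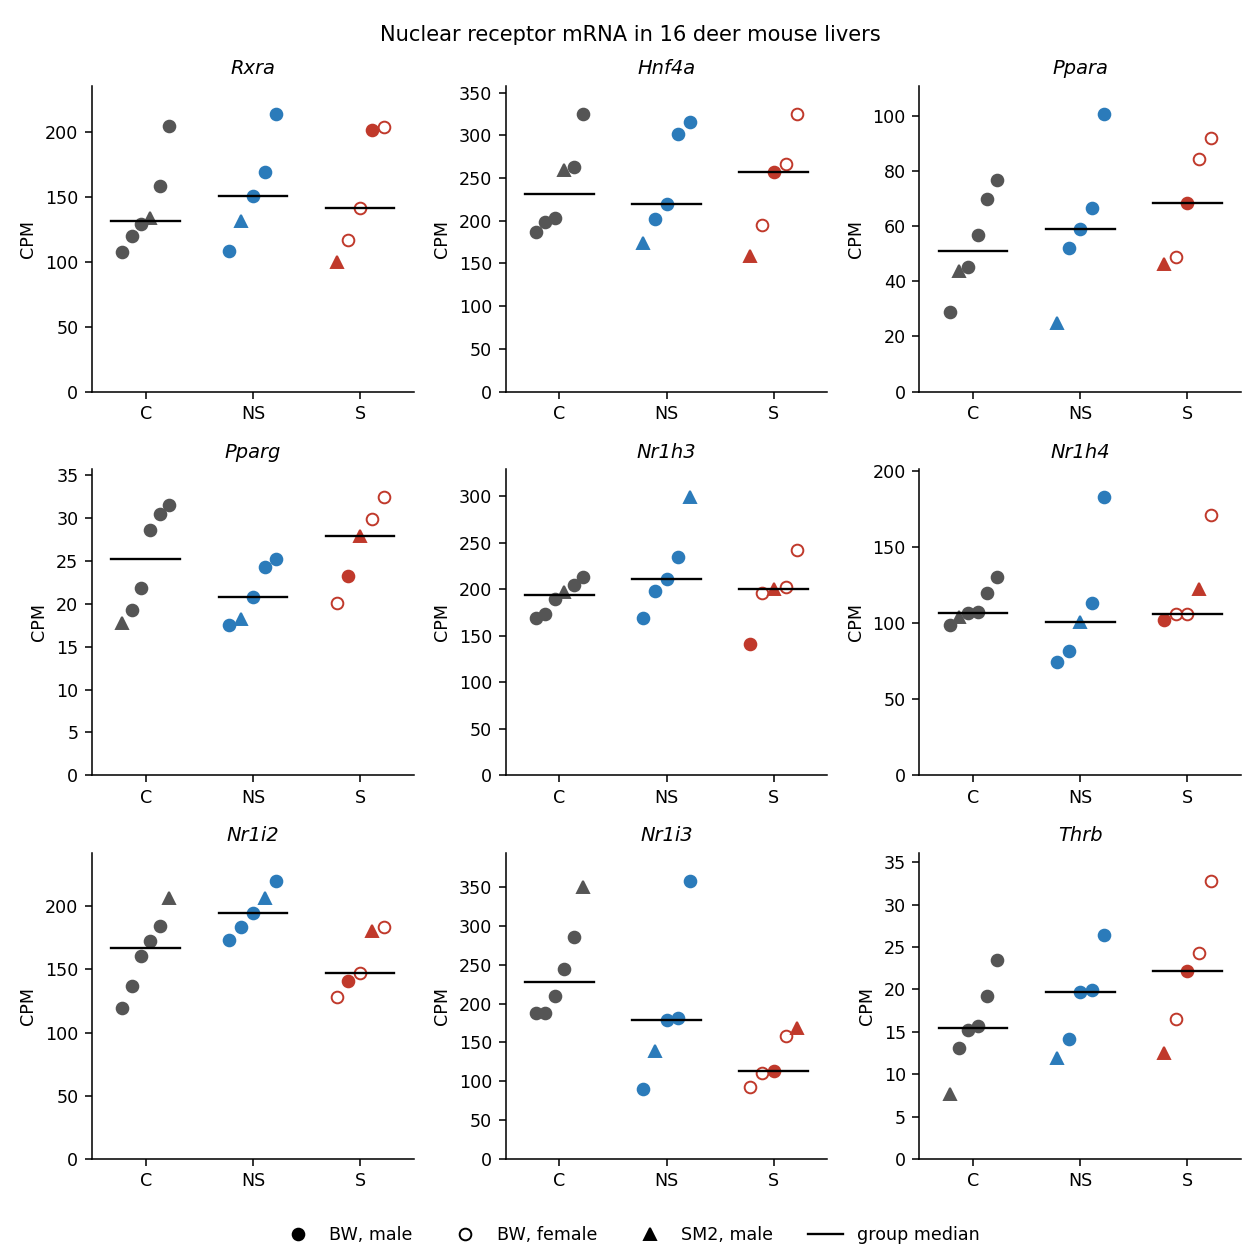
CPM of each receptor gene in every animal (y axis, starting at 0) by group (x axis: C, NS and S), with circles for BW, triangles for SM2, open symbols for females and a line at the group median. The S animals lie below all C animals for Nr1i3, and the groups overlap for the other 8 genes.

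Among the xenobiotic receptors, Nr1i3 had a median of 228 CPM in C, with a lowest value of 188 and a highest of 350. In NS its level was 139, 181, 89.8, 358 and 179 CPM in NS1 to NS5, and in S it was 169, 111, 113, 158 and 92.1 CPM in S1 to S5. All 5 S animals were below all 6 C animals, whereas NS spread across both groups, with NS4 above every C animal and NS3 below every S animal. The order of the group medians was C, NS, S, and only C and S differed beyond their spread. Nr1i3 fell in S vs C by 0.93 on the log2 scale (SE 0.29, 95% interval -1.53 to -0.32, adjusted p = 0.0729), a 1.90-fold difference. The log2 fold change was -0.37 in NS vs C (SE 0.28, adjusted p = 0.769), -0.56 in S vs NS (SE 0.29, adjusted p = 0.501) and -0.65 in HFD vs C (SE 0.24, adjusted p = 0.172). For Nr1i3, S was thus not shown to differ from NS. In whole liver, fewer cells of a type and less RNA per cell cannot be told apart, here and in all results that follow.

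The S vs C call for Nr1i3 was close to the threshold, and it held in 15 of 25 other settings (other tests, scalings, filters, covariates and subsets, and each animal left out). It was lost with sex as a covariate (log2 fold change -0.79, adjusted p = 0.259) and in males alone, where S has 2 animals (-0.79, adjusted p = 0.284), and it was kept in BW animals alone (-0.91, adjusted p = 0.0854), so sex and steatosis cannot be told apart at this gene. Leaving out C1, C3, C4, C5, C6, S2, S3 or S5 in turn also raised the adjusted p above the threshold, to between 0.102 and 0.136, with log2 fold changes of -0.79 to -0.99. In HFD vs C, Nr1i3 passed without NS4, the NS animal with the highest level (log2 fold change -0.83, adjusted p = 0.0336).

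**Figure D2:**
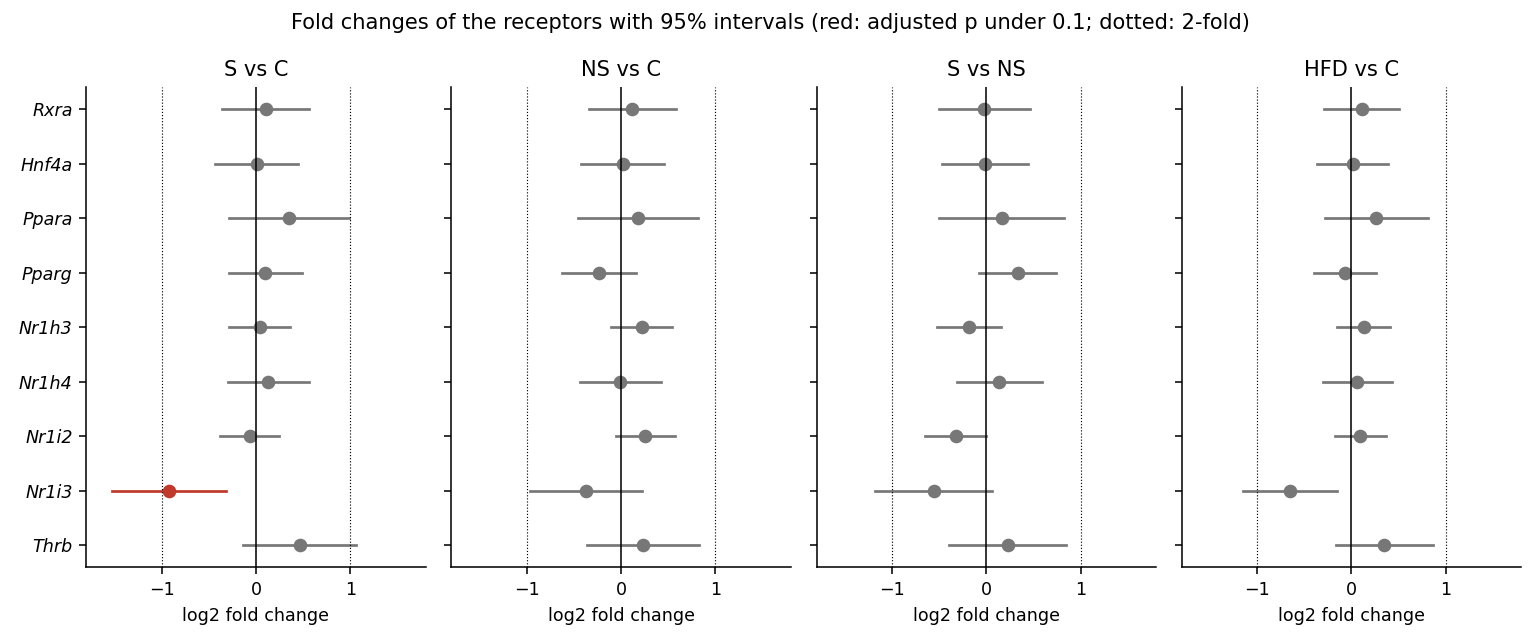
Log2 fold change (x axis) of each receptor gene (rows) in the 4 comparisons, with 95% intervals from the fit of all 16 animals; red marks an adjusted p under 0.1 and dotted lines a 2-fold difference. Nr1i3 in S vs C, at -0.93, is the single red point.

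Nr1i2, which encodes the pregnane X receptor (PXR), a drug sensor like CAR, had a median of 167 CPM in C with a range of 119 to 207. Its level was 206, 220.1, 194, 184 and 173 CPM in NS1 to NS5, and 180.2, 128, 141, 184 and 147 CPM in S1 to S5. The NS animals lay in the upper part of the C range or above it and the S animals within it, so the groups overlapped. The log2 fold change was -0.07 in S vs C (SE 0.15, adjusted p = 0.821), 0.26 in NS vs C (SE 0.15, adjusted p = 0.671) and -0.33 in S vs NS (SE 0.16, 95% interval -0.65 to 0.00, adjusted p = 0.463).

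Genes known to be induced through PXR and CAR encode enzymes and pumps of drug disposal. Of 28 listed, 12 could be tested, and in S vs C 3 fell, 0 rose and 9 did not pass (10.8% of all genes were called and 5.36% fell), with a list median of -0.24 against 0.10 for all genes tested. Cyp3a13, a cytochrome P450 of drug and steroid oxidation, was at 1418 to 2763 CPM in C (median 1894), and at 1731, 809, 477, 881 and 618 CPM in S1 to S5. Only S1, the SM2 animal, reached the C range. Cyp3a13 fell by 1.11 on the log2 scale in S vs C (SE 0.30, adjusted p = 0.0485) and by 0.94 in HFD vs C (SE 0.24, adjusted p = 0.0757). With sex as a covariate neither call held (-0.82, adjusted p = 0.241, and -0.80, adjusted p = 0.140), nor in males alone (0.277 and 0.178), and they held in 22 of 25 and 14 of 24 settings.

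Por encodes the reductase that passes electrons to microsomal cytochromes P450. It ran from 1321 to 3620 CPM in C (median 1757) and was at 590.4, 1264, 1129, 907 and 848 CPM in S1 to S5, so every S animal was below every C animal. In NS it was at 425, 1738, 834, 2538 and 1259 CPM in NS1 to NS5, overlapping both groups. Por fell by 1.13 on the log2 scale in S vs C (SE 0.37, adjusted p = 0.0836), a call that held in 15 of 25 settings and was lost with sex as a covariate (-1.27, adjusted p = 0.173) and in males alone (adjusted p = 0.210). Abcb1a, a P-glycoprotein pump that exports drugs, had 30.3 to 50.8 CPM in C (median 38.1) and 18.15, 37.6, 23.8, 28.1 and 23.3 CPM in S1 to S5. It fell by 0.58 on the log2 scale (SE 0.20, adjusted p = 0.0962), with S2 inside the C range. The Abcb1a call held in 10 of 25 settings and was lost in BW animals alone (-0.43, adjusted p = 0.213), without the filter on low counts (adjusted p = 0.109) and with only the groups compared (adjusted p = 0.118). Between NS and C and between S and NS, 0 of the 12 genes passed with edgeR or DESeq2 (2 at an unadjusted p under 0.05 in each), while all 12 log2 fold changes were negative in NS vs C. The log2 fold changes there were -0.77 for Cyp3a13 (SE 0.29, adjusted p = 0.525), -0.61 for Por (SE 0.36, adjusted p = 0.685) and -0.43 for Abcb1a (SE 0.20, adjusted p = 0.594). Cyp2b10 and Cyp3a11, the usual reporters of CAR and PXR in mice, were not analysed here.

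The genes beside Nr1i3 in the genome also differed. In the RefSeq annotation of the assembly HU_Pman_BW_mat_3.1, which is not the build the reads were aligned to, the annotated spans of Nr1i3 and of both its neighbours, Pcp4l1 and Tomm40l, overlap. Both were looked at after the Nr1i3 values were seen. Tomm40l, which encodes a protein like the channel of the mitochondrial import machinery, was at 53.9 to 126 CPM in C (median 93.0), at 34.3, 78.8, 44.2, 144 and 82.9 CPM in NS1 to NS5, and at 23.9, 31.9, 50.5, 42.9 and 27.5 CPM in S1 to S5. Pcp4l1, a gene best known from neurons, was at 8.23 to 33.6 CPM in C (median 17.2), at 2.27, 10.8, 5.73, 15.4 and 8.41 CPM in NS1 to NS5, and at 1.096, 1.67, 1.502, 4.80 and 3.05 CPM in S1 to S5. For both genes every S animal was below every C animal, and NS4 was the highest NS animal, as it was for Nr1i3.

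Tomm40l fell by 1.34 on the log2 scale in S vs C (SE 0.33, adjusted p = 0.0369), and Pcp4l1 fell by 3.00 (SE 0.50, adjusted p = 0.0125) there and by 2.12 in HFD vs C (SE 0.37, adjusted p = 0.0169). The Tomm40l call was lost with sex as a covariate (-1.27, adjusted p = 0.130) and in males alone (adjusted p = 0.161), while both Pcp4l1 calls held in all settings. Of the 18 neighbours of the 9 receptors, 15 could be tested, and these were the 2 that passed in S vs C, a share near the 10.8% of all genes. Whether the counting used strand is not given in the sources used here, so reads from a stretch shared by Nr1i3 and a neighbour may not be told apart, and the part of such reads in the 3 decreases was not tested.

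The 3 genes whose levels followed Nr1i3 most closely across the 16 animals, among 10326 genes with a mean of at least 1 CPM, were Apex2 (Pearson's r = 0.87, Spearman's rho = 0.87), Tmem147 (r = 0.87, rho = 0.85) and St7l (r = 0.86, rho = 0.95). These are descriptions of the best of many genes and carry no p, and all genes of an animal share its library. In S vs C, Apex2 fell by 1.46 on the log2 scale (adjusted p = 0.0513), Tmem147 by 0.55 (adjusted p = 0.0651) and St7l by 0.59 (adjusted p = 0.0497). Genes picked for following Nr1i3 share its group difference by that choice, so these decreases are no separate result. With sex as a covariate none of these calls held (Apex2 -1.01, adjusted p = 0.274; Tmem147 -0.56, 0.175; St7l -0.52, 0.184), nor in males alone (0.308, 0.211 and 0.228), while the sizes for Tmem147 and St7l changed little.

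**Figure D3:**
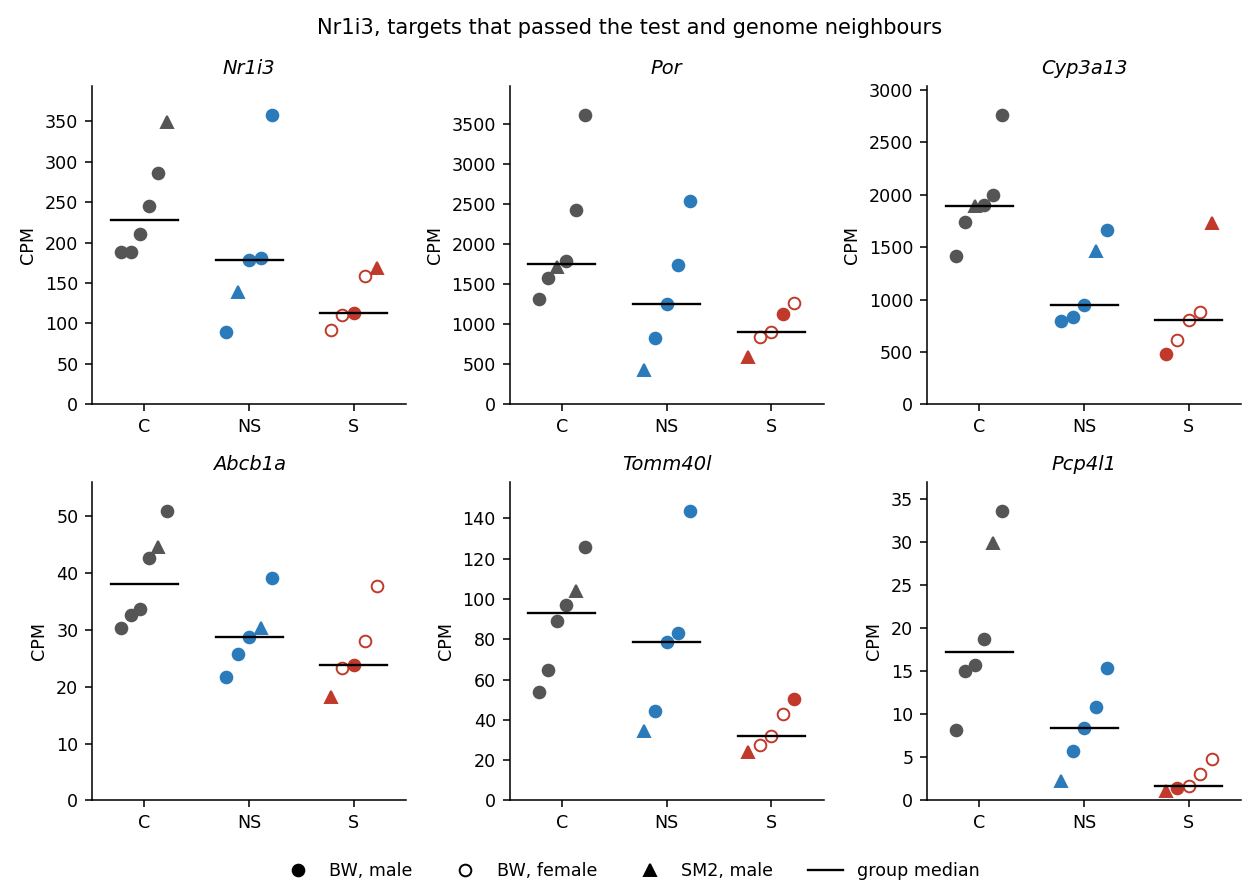
CPM in every animal (y axis, starting at 0) by group (x axis) for Nr1i3, for the 3 PXR and CAR targets that passed in S vs C (Por, Cyp3a13, Abcb1a) and for the genome neighbours Tomm40l and Pcp4l1; symbols as in the plot of the receptors. For Nr1i3, Por, Tomm40l and Pcp4l1 all 5 S animals lie below all 6 C animals.

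Nr1h3 encodes LXR-alpha, the oxysterol receptor that promotes cholesterol export and fatty acid synthesis. It was steady in C, with 169 to 213 CPM and a median of 193. The NS animals had 299, 211, 169, 235 and 198 CPM in NS1 to NS5, and the S animals 200.3, 196, 141, 202 and 242 CPM in S1 to S5. NS1 was highest and S3 lowest of all animals, and the groups overlapped. Nr1h3 had a log2 fold change of 0.04 in S vs C (SE 0.15, 95% interval -0.29 to 0.37, adjusted p = 0.906), 0.22 in NS vs C (adjusted p = 0.739) and -0.18 in S vs NS (adjusted p = 0.707).

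While the level of Nr1h3 did not pass, 3 of 13 tested LXR targets rose in S vs C, 0 fell and 10 did not pass, against 5.39% of all genes that rose and 5.36% that fell. DESeq2 called 6 of the 13 there, and of all 12639 genes 833 higher and 890 lower. The median log2 fold change of the list was 0.89 against 0.10 for all genes, and 10 of the 13 values were positive. Srebf1, the master regulator of fatty acid synthesis, was at 42.4 to 264 CPM in C (median 148), at 1492, 711, 525.7, 237 and 762 CPM in NS1 to NS5, and at 1501, 559, 1011, 521 and 626 CPM in S1 to S5. Every S animal exceeded every C animal, and of the NS animals only NS4 did not. Srebf1 rose by 2.498 on the log2 scale in S vs C (SE 0.49, adjusted p = 0.0198) and by 2.41 in HFD vs C (SE 0.45, adjusted p = 0.0235).

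Lpcat3, which puts polyunsaturated chains into phospholipids, was at 53.8 to 91.7 CPM in C (median 75.1), at 144, 144, 140, 93.2 and 111 CPM in NS1 to NS5, and at 175, 159, 115, 118 and 132 CPM in S1 to S5. All 10 HFD animals exceeded all C animals. Lpcat3 rose by 0.92 in S vs C (SE 0.17, adjusted p = 0.0144) and by 0.85 in HFD vs C (SE 0.15, adjusted p = 0.0153), on the log2 scale. Tnfaip2, a listed LXR target with a role in inflammation, was at 3.94 to 7.97 CPM in C and 9.38 to 50.5 CPM in S, where S5 was highest, and rose by 2.00 on the log2 scale (SE 0.38, adjusted p = 0.0163). With sex as a covariate its log2 fold change was 1.00 (adjusted p = 0.164) and in males alone 1.00 (adjusted p = 0.111), so the Tnfaip2 call was lost, while those of Srebf1 and Lpcat3 held in all settings. For NS vs C, 0 of 13 passed (5 at an unadjusted p under 0.05, 2 called by DESeq2), with a list median of 0.43, and in S vs NS 0 of 13 passed (3 at an unadjusted p under 0.05, 0 by DESeq2), with a median of 0.18.

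Nr1h4 encodes FXR, the bile acid receptor. Its level was 98.6 to 130.5 CPM in C (median 107), 101, 183, 114, 81.6 and 74.3 CPM in NS1 to NS5, and 123, 106, 102, 172 and 106 CPM in S1 to S5. NS2 and S4 stood above the C range and NS4 and NS5 below it, and the groups overlapped. Nr1h4 had a log2 fold change of 0.13 in S vs C (SE 0.20, adjusted p = 0.733), -0.01 in NS vs C (SE 0.20) and 0.14 in S vs NS (SE 0.21, adjusted p = 0.844).

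Of 16 tested FXR targets, many of which serve bile acid synthesis and transport, 1 fell, 0 rose and 15 did not pass in S vs C. Of all genes 10.8% were called there, and the list median was -0.44. The gene was Fetub, which encodes the liver-secreted fetuin-B and fell by 0.70 on the log2 scale (SE 0.23, adjusted p = 0.0842). DESeq2 called 3 of the 16 in S vs C, and of all 12639 genes 833 higher and 890 lower. The Fetub call held in 14 of 25 settings and was lost with sex as a covariate (-0.91, adjusted p = 0.111) and in males alone (-0.91, 0.140), where the size was larger, and without the filter on low counts (0.102) and with only the groups compared (0.102). In HFD vs C another gene, the carboxylesterase Ces1g, fell by 0.87 (SE 0.23, adjusted p = 0.0869), a call that held in 11 of 24 settings and was lost with sex as a covariate (-0.75, adjusted p = 0.153), in males alone (-0.75, 0.197) and in BW animals alone (-0.92, 0.109). There 15 of the 16 log2 fold changes were negative, with a median of -0.47 against 0.06 for all genes. The list was not split by whether FXR induces or represses a gene, so these signs and medians give no direction for FXR. Of the 16, in NS vs C 0 passed (5 at an unadjusted p under 0.05, 1 by DESeq2), and in S vs NS 0 passed (2 and 0).

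Ppara encodes PPAR-alpha, the fatty acid sensor that drives fatty acid oxidation and ketogenesis. It varied widely within each group: C ran from 28.8 to 76.8 CPM (median 50.9), NS1 to NS5 had 24.96, 101, 66.5, 58.8 and 52.1 CPM, and S1 to S5 had 46.2, 91.9, 68.5, 84.4 and 48.8 CPM. NS1 was lowest and NS2 highest of all animals, and the groups overlapped. The log2 fold change was 0.35 in S vs C (SE 0.30, 95% interval -0.29 to 0.98, adjusted p = 0.510), 0.18 in NS vs C (adjusted p = 0.913) and 0.16 in S vs NS (adjusted p = 0.885).

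Of 27 tested PPAR-alpha targets, 1 rose, 1 fell and 25 did not pass in S vs C, where 10.8% of all genes were called. DESeq2 called 5 of the 27 there, and of all 12639 genes 833 higher and 890 lower. The list median was -0.27 against 0.10 for all genes, and 22 of the 27 log2 fold changes were negative. Fabp1, the liver fatty acid binding protein, was at 200 to 4140 CPM in C (median 1861), at 6586, 6853, 5387, 6762 and 7492 CPM in NS1 to NS5, and at 4852, 6845, 4710, 7877 and 2950 CPM in S1 to S5. All NS animals and 4 of 5 S animals exceeded every C animal. Fabp1 rose by 1.42 on the log2 scale in S vs C (SE 0.48, adjusted p = 0.0927) and by 1.56 in HFD vs C (SE 0.44, adjusted p = 0.0928), while the log2 fold change of 1.70 in NS vs C did not pass (SE 0.48, adjusted p = 0.350). The Fabp1 calls held in only 8 of 25 and 8 of 24 settings. In S vs C the call was lost with sex as a covariate (1.23, adjusted p = 0.252), in males alone (1.23, 0.272), in BW animals alone (1.37, 0.150), without the filter on low counts (0.102) and with only the groups compared (0.149).

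Slc22a5, the carnitine transporter that supplies mitochondrial fatty acid import, went the other way. It was at 42.5 to 90.8 CPM in C (median 65.6) and at 34.8, 34.3, 36.4, 42.4 and 32.04 CPM in S1 to S5, so the S animals lay just below the C range. Slc22a5 fell by 0.84 on the log2 scale in S vs C (SE 0.17, adjusted p = 0.0200) and by 0.65 in HFD vs C (SE 0.14, adjusted p = 0.0391). The S vs C call held in all settings, and the HFD vs C call held in 22 of 24, with a highest adjusted p of 0.113. For NS vs C 0 of 27 targets passed (3 at an unadjusted p under 0.05, 1 by DESeq2), with 21 of 27 negative and a median of -0.16, and in S vs NS 0 passed (1 and 0).

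Pparg encodes PPAR-gamma, the adipogenic fatty acid sensor that can promote fat storage when it is expressed in hepatocytes. Its level was 17.8 to 31.5 CPM in C (median 25.3), 18.3, 20.8, 17.5, 24.2 and 25.2 CPM in NS1 to NS5, and 27.9, 32.4, 23.3, 20.1 and 29.9 CPM in S1 to S5. All NS animals were below the C median, the S animals spread across the C range with S2 just above it, and all groups overlapped. The log2 fold change was 0.10 in S vs C (SE 0.18, 95% interval -0.29 to 0.48, adjusted p = 0.784), -0.23 in NS vs C (adjusted p = 0.773) and 0.33 in S vs NS (SE 0.19, 95% interval -0.07 to 0.74, adjusted p = 0.531).

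Among 9 tested PPAR-gamma targets 1 rose and 8 did not pass in S vs C, near the 10.8% of all genes called, and the list median was 0.57. The gene was Cd36, the fatty acid translocase that takes up long-chain fatty acids. It was at 33.5 to 89.8 CPM in C (median 69.8), at 30.1, 68.3, 78.3, 54.2 and 52.1 CPM in NS1 to NS5, and at 104, 193, 132, 129 and 202 CPM in S1 to S5. Every S animal exceeded every animal of the other groups. Cd36 rose by 1.18 on the log2 scale in S vs C (SE 0.27, adjusted p = 0.0294), a call lost with sex as a covariate (0.82, adjusted p = 0.159) and in males alone (0.82, adjusted p = 0.186). Its log2 fold change of 1.42 in S vs NS did not pass (SE 0.28, adjusted p = 0.211). In NS vs C 0 of 9 passed (0 at an unadjusted p under 0.05, 0 by DESeq2), in S vs NS 0 of 9 passed (1 and 1), and in HFD vs C 0 of 9 passed (2 and 0).

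Hnf4a encodes the general hepatocyte factor and Rxra the shared partner, and neither passed in any comparison. Hnf4a was at 187 to 325 CPM in C (median 231), at 174, 202, 302, 219.5 and 315 CPM in NS1 to NS5, and at 158, 325, 257, 266 and 195 CPM in S1 to S5. Rxra was at 108 to 205 CPM in C (median 131), at 132, 151, 169, 108 and 214 CPM in NS1 to NS5, and at 100, 204, 201, 141 and 117 CPM in S1 to S5. For both genes the 3 groups overlapped, with S1 the lowest of all animals. For Hnf4a the log2 fold change was 0.01 in S vs C (SE 0.21, 95% interval -0.43 to 0.45), and for Rxra it was 0.10 (SE 0.22, 95% interval -0.36 to 0.57).

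Genes bound by HNF4-alpha or by the Nr5a2 product LRH-1 serve lipoprotein, glucose, urea and bile acid metabolism. Of 22 tested, 3 rose, 5 fell and 14 did not pass in S vs C, against 10.8% of all genes called, with a median of -0.14. Apoa4, an apolipoprotein of triglyceride-rich particles, was at 17.8 to 212 CPM in C (median 27.4), at 520.2, 1646, 299, 431 and 179 CPM in NS1 to NS5, and at 2012, 569, 764, 682 and 1687 CPM in S1 to S5. Without C6, the control animal at 212, no C animal was above 34.3 CPM. Apoa4 rose by 4.34 on the log2 scale (SE 0.74, adjusted p = 0.0125). Pklr, the liver pyruvate kinase of glycolysis, rose by 2.31 (SE 0.44, adjusted p = 0.0163) although S5, at 101 CPM, was within the C range of 73.3 to 237 CPM. Cyp2d22, a cytochrome P450, fell by 1.25 (SE 0.33, adjusted p = 0.0452), a call lost with sex as a covariate (-0.96, adjusted p = 0.217) and in males alone (-0.96, adjusted p = 0.243), while those of Apoa4 and Pklr in S vs C held in all settings. In HFD vs C, where 2.67% of all genes were called, 2 rose and 2 fell. In NS vs C 0 of 22 passed. There 6 had an unadjusted p under 0.05, against 1048 of 12639 genes, and DESeq2 called 3, against 90 of all genes. In S vs NS 0 passed (4 at an unadjusted p under 0.05 and 1 by DESeq2).

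The ligand of RXR and of the retinoic acid receptors is made from vitamin A, which the liver stores and exports. Of 16 tested genes of retinoid handling, 3 fell, 0 rose and 13 did not pass in S vs C, where 5.36% of all genes fell, with a median of -0.04. Rbp4, the plasma carrier of retinol, was at 6122 to 9185 CPM in C (median 7475), at 6659, 5646, 5925, 8420 and 6794 CPM in NS1 to NS5, and at 4323, 3581, 3071, 4800 and 4882 CPM in S1 to S5. Every S animal was below every animal of the other groups. Rbp4 fell by 0.90 on the log2 scale in S vs C (SE 0.17, adjusted p = 0.0157) and by 0.55 in HFD vs C (SE 0.14, adjusted p = 0.0669), the former call holding in all settings and the latter in 15 of 24. Rarres2, the retinoid-responsive gene of the chemokine chemerin, fell by 0.85 in S vs C (SE 0.20, adjusted p = 0.0339). Ttr, which carries thyroid hormone and the retinol carrier in plasma and stands in 3 of the lists, fell by 0.66 (SE 0.21, adjusted p = 0.0772). With sex as a covariate the calls of Rarres2 and Ttr were lost (-0.77, adjusted p = 0.124, and -0.82, adjusted p = 0.115), as they were in males alone (0.130 and 0.127), with a larger size for Ttr. The Ttr call held in 17 of 25 settings. Of these 16 genes, in NS vs C 0 passed (1 at an unadjusted p under 0.05, 0 by DESeq2) and in S vs NS 0 passed (3 and 2).

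Thrb encodes the thyroid hormone receptor beta, the main form in hepatocytes. Its level was 7.68 to 23.4 CPM in C (median 15.5), 11.8, 14.2, 26.5, 19.6 and 19.9 CPM in NS1 to NS5, and 12.55, 32.8, 22.1, 24.3 and 16.5 CPM in S1 to S5. In each group the SM2 animal was the lowest, and the BW animals overlapped between groups. The log2 fold change was 0.46 in S vs C (SE 0.28, 95% interval -0.13 to 1.06, adjusted p = 0.327), 0.23 in NS vs C (SE 0.28, adjusted p = 0.873) and 0.23 in S vs NS (SE 0.29, adjusted p = 0.804).

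Of 12 tested genes of the thyroid hormone axis, 1 rose, 2 fell and 9 did not pass in S vs C, where 10.8% of all genes were called, with a median of 0.01. Slc16a10, a transporter of aromatic amino acids and thyroid hormones, was at 101 to 130.0 CPM in C (median 112), at 52.2, 71.0, 52.0, 93.5 and 73.7 CPM in NS1 to NS5, and at 50.2, 61.2, 73.0, 48.8 and 57.0 CPM in S1 to S5. All 10 HFD animals were below all C animals. Slc16a10 fell by 0.96 on the log2 scale in S vs C (SE 0.16, adjusted p = 0.0125) and by 0.84 in HFD vs C (SE 0.13, adjusted p = 0.00990), while the log2 fold change of -0.72 in NS vs C did not pass (SE 0.16, adjusted p = 0.151). Me1, the malic enzyme that supplies NADPH for lipogenesis, rose by 1.45 in S vs C (SE 0.38, adjusted p = 0.0476) and by 1.45 in HFD vs C (SE 0.35, adjusted p = 0.0596), calls that held in 24 of 25 and 20 of 24 settings. Those of Slc16a10 held in all settings, and Ttr, given above, was the other gene that fell. Of the 12, in NS vs C 0 passed (3 at an unadjusted p under 0.05, 2 by DESeq2, which called 90 of all genes there). In S vs NS 0 passed (1 and 0).

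The rest of the nuclear receptor family and the coregulators held no gene that passed. Of 28 other nuclear receptor genes tested, 0 passed in any comparison with edgeR. In S vs C 6 had an unadjusted p under 0.05, no larger a share than the 3010 of 12639 genes, DESeq2 called 1, and the list median was 0.34, with 21 of 28 positive. Of 25 coregulator genes tested, which encode the coactivators and corepressors that receptors recruit, 0 passed in any comparison with edgeR. In S vs C 7 had an unadjusted p under 0.05, a share near that of all genes, DESeq2 called 4 (of all genes it called 833 higher and 890 lower), and the list median was 0.32, with 20 of 25 positive. In HFD vs C DESeq2 called 1 gene of each of these lists, and in NS vs C and S vs NS it called 0.

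**Figure D4:**
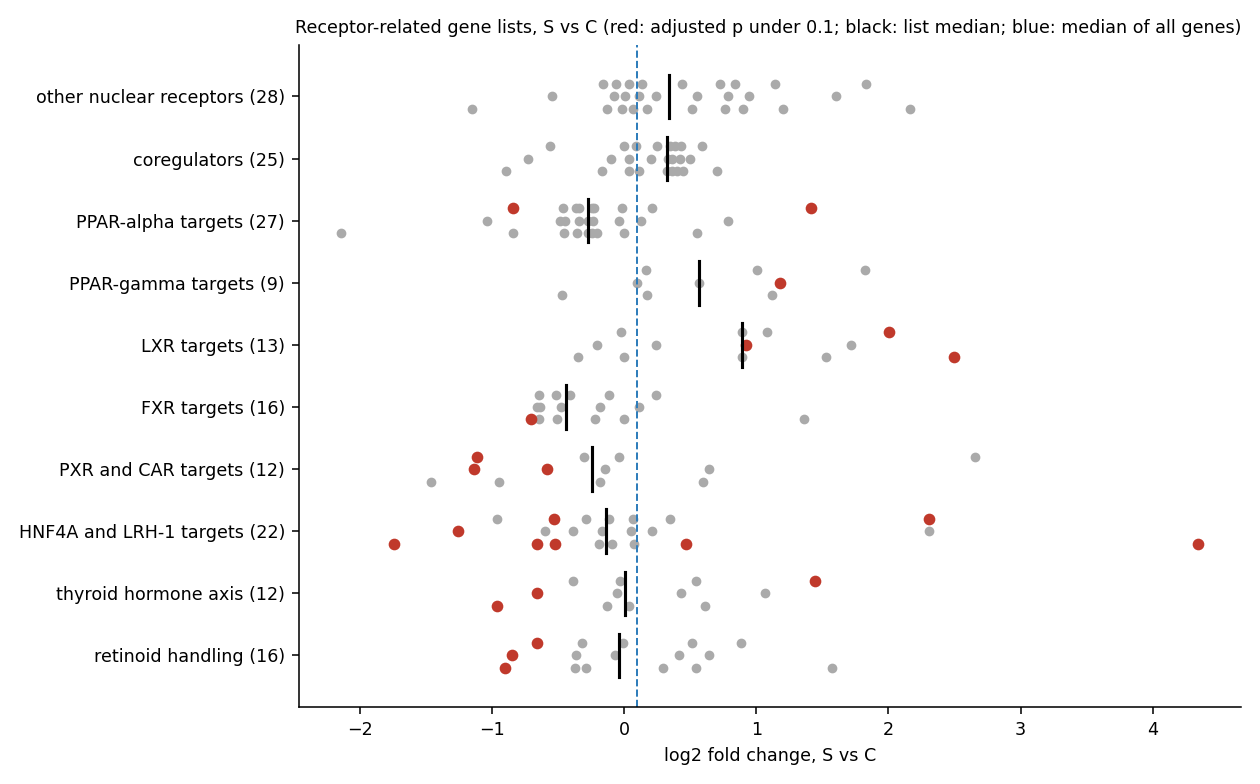
Log2 fold change in S vs C (x axis) of every tested gene of the 10 lists (rows, number of genes in brackets; vertical offsets have no meaning), with red points for an adjusted p under 0.1, black bars for list medians and a dashed blue line for the median of all genes tested, 0.10. The LXR targets have the highest list median, 0.89, and the FXR targets the lowest, -0.44.

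Across the 16 animals the receptors varied together in few pairs. Of 36 pairs, 16 had a positive Pearson's r on log2(CPM + 0.5), and 2 had an adjusted p under 0.05 by a two-sided permutation test with Benjamini-Hochberg adjustment over the 36. Rxra and Hnf4a rose and fell together (r = 0.83, p = 0.00011, adjusted p = 0.00396; rho = 0.80, p = 0.00036, adjusted p = 0.0130). The relation held without the 2 animals farthest from the Rxra median, NS5 and C2 (r = 0.77). It also held in the 13 BW animals (r = 0.84, adjusted p = 0.0313) and with each group centred on its own mean (r = 0.84, adjusted p = 0.0166). All genes of an animal share its library, and other genes followed each receptor more closely (Wnk1 with Rxra and Cacul1 with Hnf4a, both r = 0.89). An r of this size is thus not particular to the receptors.

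Pparg and Nr1i2 varied in opposite directions (r = -0.74, p = 0.00169, adjusted p = 0.0304; rho = -0.77, p = 0.00103, adjusted p = 0.0185). Without S2 and NS3, the 2 animals farthest from the Pparg median, r was -0.68. Within BW animals r was -0.71 (adjusted p = 0.103) and with groups centred it was -0.67 (adjusted p = 0.218), so the relation did not pass in either. With CPM by total count r was -0.55 (adjusted p = 0.116), so the relation between Pparg and Nr1i2 also depended on the scaling. Nr1i3 had its most negative r with Thrb (-0.48, p = 0.0603, adjusted p = 0.241; rho = -0.40, p = 0.124).

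**Figure D5:**
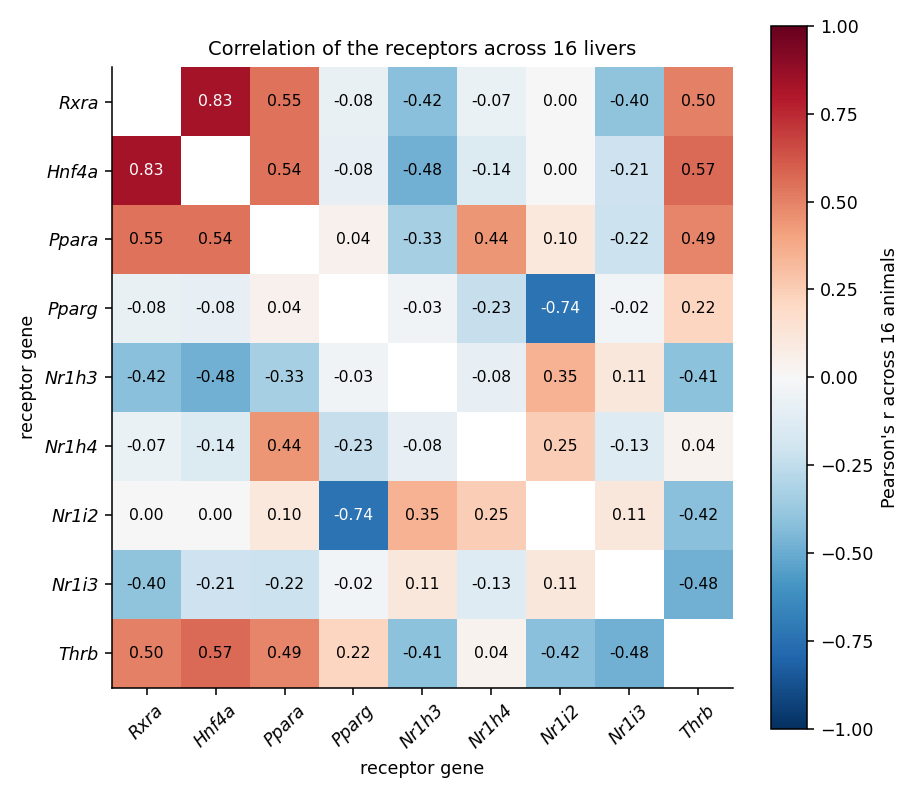
Pearson's r between each pair of receptor genes (rows and columns) on log2(CPM + 0.5) across the 16 animals, as colour and number. The highest value is 0.83 for Rxra with Hnf4a and the lowest is -0.74 for Pparg with Nr1i2.

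Each receptor was also paired with up to 2 textbook targets, and 14 of 18 pairs could be computed. With Pearson's r, 0 of 14 had an adjusted p under 0.05 over the 14, and 5 had an unadjusted p under 0.05. The receptor that differed between groups, Nr1i3, had r = 0.60 with Por (p = 0.0147, adjusted p = 0.0574) and rho = 0.76 (p = 0.00102, adjusted p = 0.0143). Without NS4 and NS3, the 2 animals farthest from its median, r was 0.50, and in the 13 BW animals r was 0.73 (permutation p = 0.00452, adjusted p = 0.0633). With groups centred r was 0.35 (permutation p = 0.359), so the relation did not pass within groups.

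Thrb had r = 0.67 with Dio1, the deiodinase it induces (p = 0.00396, adjusted p = 0.0554; rho = 0.50, p = 0.0523, adjusted p = 0.147), with r = 0.64 without C1 and S2 and r = 0.78 with groups centred (adjusted p = 0.00826). In the 13 BW animals r was 0.34 for Thrb with Dio1 (permutation p = 0.259), so the relation did not pass within that stock.

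Other pairs with an unadjusted p under 0.05 were Ppara with Cpt1a, the gate of mitochondrial fatty acid oxidation (r = 0.59, p = 0.0164, adjusted p = 0.0574; rho = 0.54, p = 0.0341), and Nr1h4 with Nr0b2, the corepressor SHP that it induces (r = 0.56, p = 0.0229, adjusted p = 0.0642; rho = 0.53, p = 0.0381). Without NS1 and C3, the 2 animals farthest from the Ppara median, r for Ppara with Cpt1a was 0.17, so its size depended on those animals. With groups centred r for this pair was 0.69 (permutation test, adjusted p = 0.0631), and in the 13 BW animals it was 0.37 (adjusted p = 0.453). Without S4 and NS2, r for Nr1h4 with Nr0b2 was 0.42. Nr1h3 had r = 0.08 with Srebf1 (p = 0.758, adjusted p = 0.884; rho = 0.02, p = 0.935), although Srebf1 rose in S vs C.

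How far a gene keeps its relations with all other genes from group to group was described with the Pc index, the correlation between a gene's list of r values in 1 group and its list in the other. The median Pc of the 9 receptors was 0.26 between S and C against 0.20 over 13431 genes, 0.08 between NS and C against 0.10 over 13336, and 0.19 between S and NS against 0.17 over 13385. Nr1i3 had a Pc of 0.32 between S and C, -0.07 between NS and C and -0.06 between S and NS. With animals left out in turn these ran from 0.24 to 0.34, from -0.19 to 0.16 and from -0.21 to 0.01. These values were computed on the counts, with no scaling for depth. Single receptors moved with CPM by total count. Between S and C, Nr1h4 went from 0.35 to -0.08 and Nr1i2 from 0.24 to -0.10, while Rxra went from 0.16 to 0.31. Nr1i3 was at 0.28 there. With CPM by total count the median of the receptors was 0.21 between S and C against 0.10 for all genes, 0.24 between NS and C against 0.15, and 0.12 between S and NS against 0.17, so the order of the comparisons depended on the scaling. The values for groups of 5 or 6 animals are descriptions, with no test.

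The labelled tissue was checked by marker genes of liver cell types. Of 8 hepatocyte markers 5 were used, with Apoa1 the most abundant. Their summed level was 39857 to 64711 CPM in C (median 51427), 56188, 74674, 58139, 77663 and 54784 CPM in NS1 to NS5, and 57456, 38338, 38905, 52086 and 30985 CPM in S1 to S5. Hepatocyte transcripts were thus abundant in all 16 livers, and S2, S3 and S5 were below every C animal. In S vs C Apoa2 fell by 1.02 on the log2 scale (SE 0.24, adjusted p = 0.0325) while Apoa1 rose by 0.96 (SE 0.275, adjusted p = 0.0575), a call that held in 22 of 25 settings and was lost in BW animals alone (0.75, adjusted p = 0.124), and Ttr fell as given above. Fga, which was outside the naming rule and is named after its values were seen, fell by 0.48 (SE 0.17, adjusted p = 0.0955), a call that held in 8 of 25 settings. In S vs C, where Nr1i3 fell, 4 of the 5 hepatocyte markers thus had negative log2 fold changes and 3 fell, with a median of -0.48, and in S vs NS all 5 were negative, with a median of -0.61 and 0 called by edgeR (4 at an unadjusted p under 0.05, 1 called by DESeq2). The part of less hepatocyte RNA in the decreases was not tested.

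Among markers of other cells, 0 of 5 cholangiocyte, 0 of 6 Kupffer cell, 0 of 5 sinusoidal endothelial and 0 of 6 lymphocyte genes passed in S vs C with edgeR (the most abundant were Spp1, Marco, Stab2 and Cd79a), with 0 at an unadjusted p under 0.05 and 0 called by DESeq2. The neutrophil and monocyte genes S100a8 and S100a9 fell in S vs C by 1.98 (SE 0.52, adjusted p = 0.0452) and 1.77 (SE 0.48, adjusted p = 0.0497) on the log2 scale, while the other tested gene of that list had a positive log2 fold change. Both calls were lost with sex as a covariate (-1.98, adjusted p = 0.144, and -1.87, adjusted p = 0.138) and in males alone (0.160 and 0.122), with sizes no smaller. Of the 6 stellate cell genes, 5 had positive log2 fold changes in S vs C, with a list median of 0.37. Dcn alone fell, by 1.05 (SE 0.25, adjusted p = 0.0354), and Col1a1, a fibrillar collagen, had a log2 fold change of 5.57 (adjusted p = 0.0397) that was -0.28 without S3 (adjusted p = 0.736).

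Stock and sex were examined as covariates. With stock in the fit, 2 of 9 receptors differed between SM2 and BW, against 21.8% of all genes. Thrb was lower in SM2 by a log2 fold change of -0.95 (SE 0.23, adjusted p = 0.0103) and Ppara by -0.77 (SE 0.29, adjusted p = 0.0803). With sex in the fit, 0 of 9 differed between females and males with edgeR, against 0.396% of all genes, and all 3 females were in S.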

How the data were processed

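Liver RNA was sequenced from 16 deer mice. The authors aligned reads with STAR 2.7.2 to HU_Pman_2.1 and deposited raw counts per gene from featureCounts (Subread). Genes reaching 0.5 CPM in any animal were tested with edgeR 4.0.16 (quasi-likelihood, TMM, 1 fit of all 16 animals without covariates, R 4.3.3), with an adjusted p under 0.1. CPM were scaled by TMM. Results were recomputed by DESeq2 1.42.0, with another scaling, other filters, sex or stock as covariates, subsets of animals, and each animal left out. Correlations used 100000 permutations (numpy 2.4.6, scipy 1.17.1), so the smallest p was 1e-05. On simulated counts for S vs C with 12078 genes, 86 of 100 genes changed 2-fold were recovered. For S vs NS with the same genes it was 70 of 100. Another 100 genes were changed 4-fold in the same run, which gave 18 false calls for S vs C and 11 for S vs NS. The simulation used the same fixed spread for all genes, no stock or sex effect, and changed only well-counted genes. Its recovery therefore does not measure the power of the tests on these animals, where S vs NS called 1 of 12639 genes. Named genes were the receptors, up to 3 genes of each list and comparison with the smallest adjusted p that passed, the 3 genes most correlated with each receptor, the paired targets and the most abundant marker of each cell type. Of these, 1 paired target and 1 correlated gene are not reported here. The genome neighbours were added after values were seen. Members and lists were chosen with earlier results of these data known.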

Additional observations from a re-analysis of the deposited data

Results flagged for a closer look

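The summed CPM of stellate cell markers was 2275 in S3, against 155 to 310.8 in the other S animals. Of that sum 2058 CPM came from Col1a1, while Dcn, the most abundant stellate cell marker, was at most 184 CPM in S. The summed CPM of adipocyte markers was 45.68 in S5, against 1.706 to 6.191 in the other S animals. That sum was almost all Fabp4 (45.39 CPM), since Adipoq, Plin1, Lep and Cfd had at most 3 counts in every animal, and S5 also had the highest summed Kupffer cell markers in S (627.2 CPM). In both cases a single animal stood far from the rest of its group. Of 51 groups tested for such an animal 2 had one, and chance marks about 1 in 20 groups. The cause was not tested.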

How the results depend on the processing

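No paired analysis was possible because the labels give the animals of different groups no shared numbers. The cause was not tested for any change below. Groups of 5 or 6 animals and the depth limit small differences, as the intervals show.

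With DESeq2, genes called at a fold of at least 2 and at any fold numbered 245 and 954 in HFD vs C, 45 and 90 in NS vs C, and 59 and 97 in S vs NS. Of those at any fold, 47 were higher and 43 lower in NS vs C (52.2% higher, where edgeR had 7 higher and 3 lower), and 47 were higher and 50 lower in S vs NS (48.5% higher, where edgeR had 0 higher and 1 lower). With sex as a covariate the numbers were 228 and 566 in HFD vs C, 16 at any fold in NS vs C, and 191 and 213 in S vs NS. With stock as a covariate they were 231 and 856, 29 and 52, and 17 and 22. In BW animals alone they were 195 at any fold in HFD vs C and 18 and 21 in S vs NS. In males alone S vs NS had 157 and 165, and with only the groups compared 0 and 0.

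The receptors called in S vs C numbered 0 with sex as a covariate and in males alone. Other receptor log2 fold changes that changed sign, none of them called, were as follows. In males alone and with sex as a covariate: Hnf4a -0.0930 and -0.0932 in HFD vs C and -0.20 and -0.20 in S vs C, Nr1h3 -0.16 and -0.16 in S vs C, Ppara -0.0820 and -0.0828 and Thrb -0.0937 and -0.0950 in S vs NS. With stock as a covariate: Hnf4a -0.00364 in HFD vs C and -0.0119 in S vs C. In BW animals alone: Pparg -0.00207 in S vs C, Hnf4a 0.0244 and Rxra 0.0656 in S vs NS. Hnf4a in S vs NS was 0.00270 with DESeq2, 0.00289 with RLE size factors and 0.00485 with at least 1 CPM in 5 animals.

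With each animal left out, genes called at a fold of at least 2 and at any fold ranged from 192 to 573 and 448 to 1537 in S vs C, 2 to 29 and 2 to 49 in NS vs C, 1 to 15 and 1 to 16 in S vs NS, and 36 to 234 and 63 to 939 in HFD vs C. Receptors called ranged from 0 to 1 in S vs C and in HFD vs C. Log2 fold changes that crossed 0 ranged in S vs C from -0.13 to 0.12 for Hnf4a, -0.0463 to 0.14 for Nr1h3, -0.0243 to 0.19 for Nr1h4, -0.14 to 0.0123 for Nr1i2, -0.0243 to 0.23 for Rxra and -0.28 to 5.89 for Col1a1. In NS vs C they ranged from -0.0935 to 0.13 for Hnf4a, -0.26 to 0.11 for Nr1h4, -0.0779 to 0.38 for Ppara and -0.0244 to 0.25 for Rxra. In S vs NS they ranged from -0.14 to 0.12 for Hnf4a, -0.0164 to 0.40 for Nr1h4, -0.0341 to 0.42 for Ppara and -0.14 to 0.13 for Rxra. In HFD vs C they ranged from -0.0541 to 0.12 for Hnf4a, -0.0667 to 0.12 for Nr1h4 and -0.15 to 0.00821 for Pparg.

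Receptor and target pairs with an adjusted p under 0.05 numbered 2 with CPM by total count, 2 with Spearman's rho, 1 with values centred by group and 0 to 3 with each animal left out. Receptor pairs numbered 1 with CPM by total count, 1 in BW animals alone, 1 with values centred by group and 1 to 3 with each animal left out.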

Other observations

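The 3 genes with the highest Pearson's r across the 16 animals, a description with no p, were as follows. For Rxra they were Wnk1 (0.89), Rapgef1 (0.89), Pdxdc1 (0.88). For Hnf4a they were Cacul1 (0.89), Met (0.89), Tollip (0.88). For Thrb they were Tmem30b (0.92), Smcr8 (0.92), Ssx2ip (0.91). For Ppara they were Hbp1 (0.83), Grap (0.81), Sdr42e1 (0.79). For Pparg they were Il1rn (0.78), Nmnat3 (0.75), Jund (0.75). For Nr1h3 they were Fam166a (0.89), Nr2c2ap (0.86), Mcm7 (0.83). For Nr1h4 they were Msc (0.68), Nr1d1 (0.66), Arl14ep (0.66). For Nr1i2 they included Zfp623 (0.86) and Nrbp2 (0.81).

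These receptor and target pairs had an unadjusted p above 0.05 with Pearson's r by permutation. They were Pparg with Cd36 (0.15) and Cidec (0.30), Nr1h3 with Abca1 (-0.38), Nr1h4 with Abcb11 (-0.03), Nr1i2 with Abcb1a (0.02), Hnf4a with Apoc3 (0.14) and Ttr (-0.28), and Thrb with Thrsp (0.18).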
